A study of Mus musculus with 8 samples.

Results

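The extracellular matrix of the outflow tract (OFT), the vessel through which the embryonic heart empties, was followed here through 46 genes that encode its glycoproteins, its proteoglycans and the machinery of hyaluronan. The genes were chosen by name, from what their products do in the matrix, with earlier results of these data known. Of the 46, 46 were among the 14608 genes of the expression table. RNA-seq had been made from mouse OFT at embryonic day 11.5, with 4 libraries from control embryos and 4 from embryos with the genotype Mib1V943F/+ Gata6STOP/+, called mutant below. These embryos carry both alleles in the heterozygous state, in every cell: a missense allele of *Mib1*, the ubiquitin ligase that lets NOTCH ligands signal, and a stop allele of *Gata6*, a zinc finger transcription factor of heart and vessel. The labels give the other group only as control, and no library with either allele alone was analysed here. Each library is a pool of embryos: the labels speak of 3 individuals in a pool, and the methods of 4 pairs of OFT in each of 3 pools for either genotype. Whether the controls are littermates is not stated in the sources used here.

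At this stage the OFT holds cushions, which are swellings of hyaluronan-rich jelly between endocardium and myocardium that mesenchymal cells fill and from which the arterial valves and the septum form. Hyaluronan is spun out at the cell surface by a synthase and is bound by versican and by link protein, which hold water in the jelly. Fibronectin and fibrillin microfibrils form a scaffold on which fibulins and EMILINs help elastin to be laid down, laminins, nidogens and perlecan build the basement membranes under endothelium and around muscle, and the matricellular proteins and small leucine-rich proteoglycans tune how cells and collagen fibrils behave in this mesh.

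The libraries held between 10669420 reads on listed genes (control replicate 2) and 30469165 reads (mutant replicate 3), so that 1 read was worth between 0.0325 and 0.0948 CPM (reads scaled to library size). The least sampled of the matrix genes, *Ogn*, had 18 reads in its lowest library. No 2 replicates were copies of one library, since their counts differed by a chi-square per gene of 6.67 to 33.7. Pairs with mutant replicate 2 gave the highest values, 30.8 to 33.7, where the other mutant pairs gave 9.38 to 12.4 and the control pairs 6.67 to 18.5. *Gata6* RNA measured 262 ± 18.5 CPM in control and 249.3 ± 36.1 CPM in mutant libraries (mean ± SD, n = 4). *Mib1* RNA measured 122 ± 15.6 and 128 ± 6.62 CPM. The levels of these transcripts thus do not separate the groups and do not check the labels. By quantitative PCR, the paper reports *Gata6* mRNA in this genotype reduced to the level predicted for it. Such a reduction was not seen here. Mutant over control was a fold of 0.947 for *Gata6* (log2 -0.08, limma confidence interval -0.29 to 0.14), and the groups overlapped. The reason for this difference from the paper was not tested. Defining markers of the tissue were present, with 16 of 16 for cardiomyocytes, 12 of 12 for endocardium and endothelium, 10 of 10 for cushion mesenchyme and 8 of 8 for smooth muscle. So were 9 of 9 for epicardium, 9 of 9 for erythroid cells and 10 of 10 for macrophages. For second heart field and pharyngeal mesoderm 7 of 10 were present, for neural crest, glia and neurons 7 of 10, and for pharyngeal endoderm and epithelium 3 of 10.

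A measure of level per length, CPM per kb of exon, lets genes be set beside each other. On this scale *Sparc*, a collagen-binding matricellular protein, stood first with a mean of 341 over the 8 libraries, followed by *Fn1* (fibronectin) with 248, *Tgfbi*, a cell adhesion protein, with 147, *Vcan* (versican) with 136, *Mfap2*, a microfibril glycoprotein, with 126, *Eln* (elastin) with 123, *Nid2* (nidogen) with 112 and *Fbln2* (fibulin) with 110.4. At the other end were *Thbs2* with 1.99, *Lama1* with 1.36, *Mfap5* with 1.35, *Ogn* with 1.2 and *Matn2* with 1.03. The order mixes the role groups: the leading genes come from the matricellular proteins, the fibronectin and elastic fibre group, the versican matrix and the basement membrane, and the small leucine-rich proteoglycans first appear with *Bgn* (biglycan) at 35.3.

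**Figure D1:**
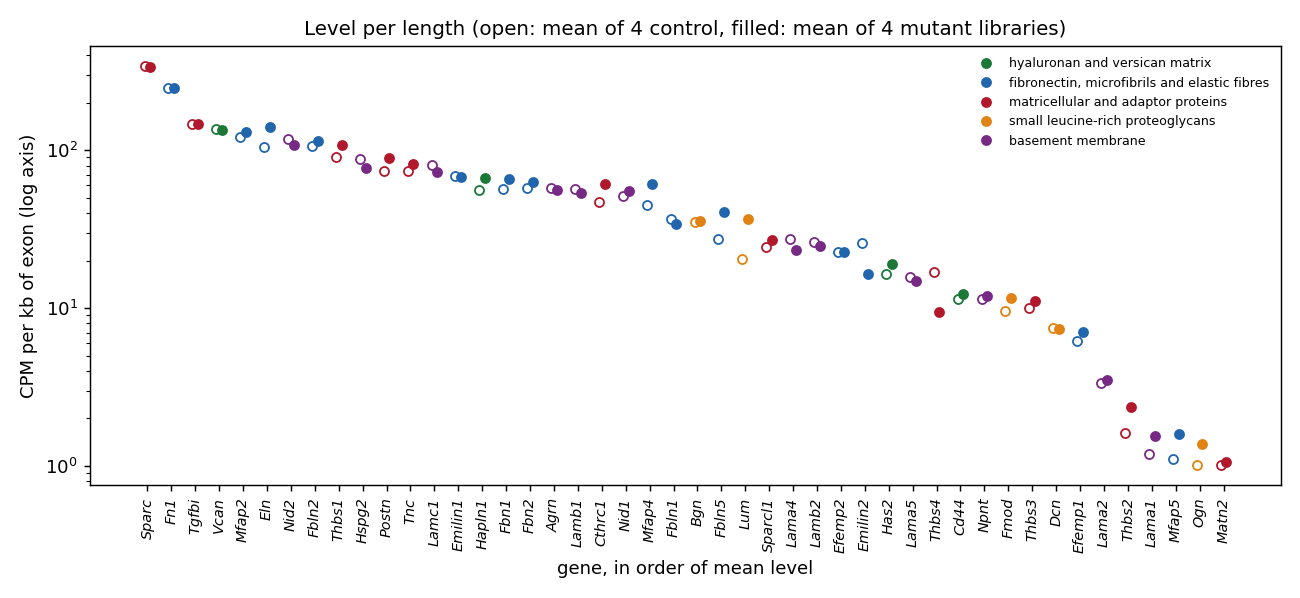
Level of each of the 46 matrix genes per length, as CPM per kb of exon on a log axis, with genes in order of their mean over 8 libraries. Open points are means of the 4 control libraries, filled points means of the 4 mutant libraries, and colours give the role group. *Sparc* (341) and *Fn1* (248) lead and *Matn2* (1.03) is last, and the pair of points lies furthest apart for *Thbs4*, *Lum* and *Emilin2*.

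The comparison of mutant with control libraries asks how the OFT matrix stands when both alleles are present. With limma on log2(CPM + 0.5) and Benjamini-Hochberg adjustment over all genes, 0 of the 46 genes passed the threshold of 0.05, as did 0 of all genes (0.0%). The edgeR quasi-likelihood test on whole reads also passed 0 matrix genes, with 13 at an unadjusted p under 0.05 (all genes 11.7%). At an unadjusted limma p under 0.05 there were 12 matrix genes, 9 higher and 3 lower in mutant libraries, where 12.1% of all genes reached that level, 5.45% higher and 6.62% lower. Since the genes were chosen with earlier results of these data known, these shares are a description and no test of the group. The 9 higher genes were *Hapln1*, *Fbn1*, *Mfap4*, *Mfap5*, *Fbln5*, *Eln*, *Thbs2*, *Cthrc1* and *Lama1*, and the 3 lower genes were *Emilin2*, *Thbs4* and *Lama4*. Without control replicate 2 that count was 7, where 7.67% of all genes reached the level.

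The edgeR likelihood ratio test on whole reads, which is closest to the test named in the methods, passed 2 matrix genes, *Emilin2* and *Thbs4*, both lower in mutant libraries, where it passed 0.732% of all genes, 0.554% lower and 0.178% higher. DESeq2 passed *Emilin2* and *Mfap4*, where it passed 1.31% of all genes, 0.999% lower and 0.315% higher. The log2 fold change of mutant over control was above 0 for 28 of 46 matrix genes (all genes 50.4%), and its median was 0.10, beside 0.00 for all genes. The median was 0.05 without mutant replicate 2, 0.06 without mutant replicate 3 and 0.06 without control replicate 2. In 4 of 46 genes the libraries of the groups did not overlap, *Lama1* higher and *Emilin2*, *Lama4* and *Lamc1* lower, a count to be read against 7.1% of all genes, 3.2% higher and 3.9% lower.

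**Figure D2:**
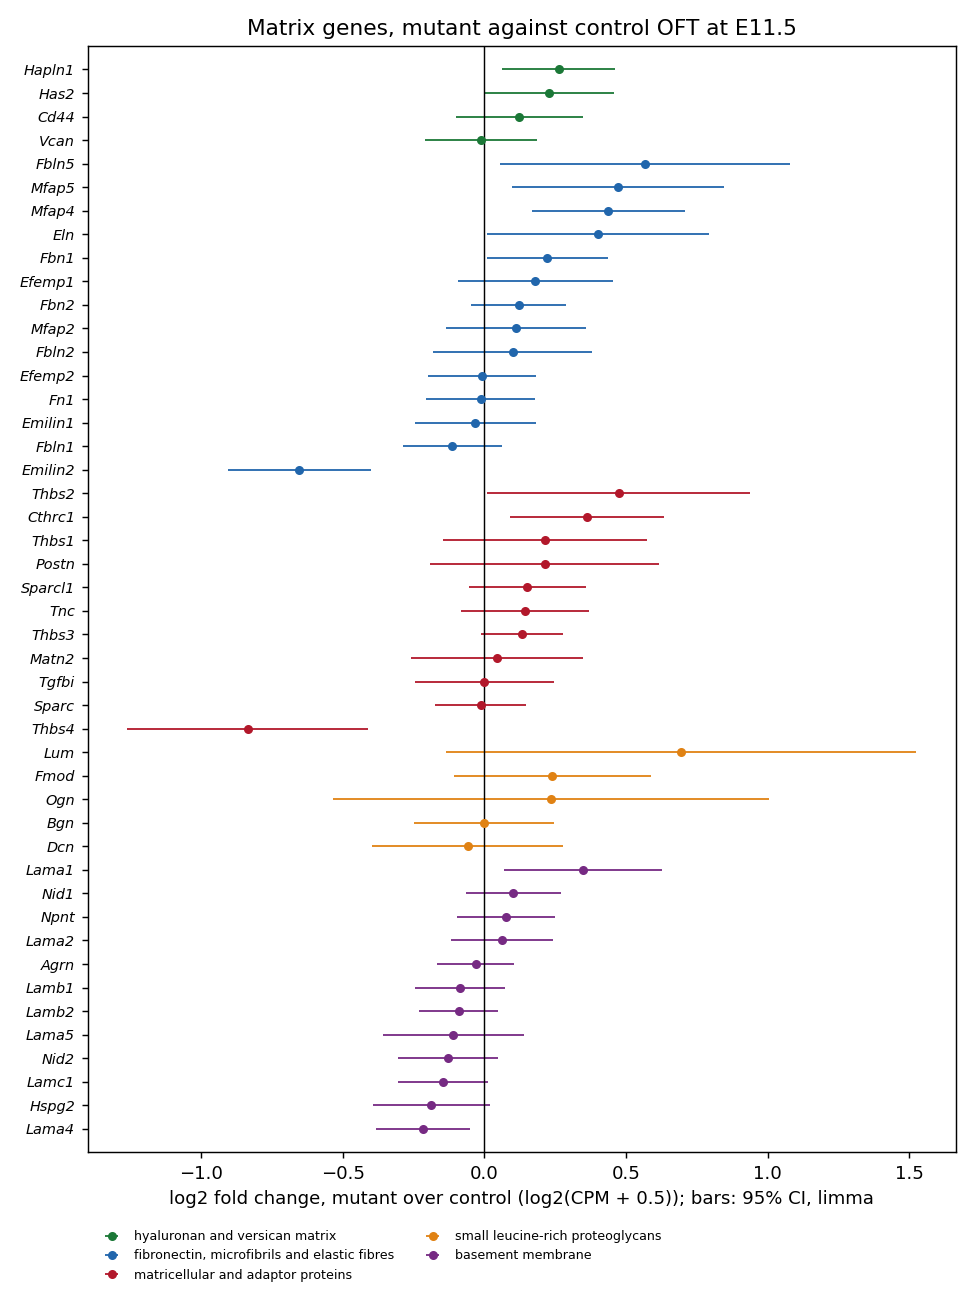
Log2 fold change of mutant over control for the 46 matrix genes on the log2(CPM + 0.5) scale, by role group, with 95% confidence intervals from limma that are not adjusted for the number of genes. *Emilin2* (-0.65) and *Thbs4* (-0.84) lie farthest to the left with intervals that leave out 0, and *Lum* has the largest positive value (0.70) with one of the widest intervals.

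*Emilin2*, a glycoprotein of the EMILIN family that sits at the interface of elastin and microfibrils, was the matrix gene with the smallest p. *Emilin2* measured 169.5, 140.3, 136 and 125 CPM in control replicates 1 to 4 and 106, 77.2, 80.4 and 100.4 CPM in mutant replicates 1 to 4. All 4 mutant libraries lay below all 4 control libraries. The means were 143 ± 18.8 CPM in control and 91.0 ± 14.3 CPM in mutant libraries (SD, n = 4). Mutant differed from control by a log2 fold change of -0.65 (SE 0.116, 95% CI -0.91 to -0.40), a fold of 0.636. It passed the likelihood ratio test (adjusted p = 0.00031) and DESeq2 (adjusted p = 0.00014), and did not pass limma (adjusted p = 0.124) or the quasi-likelihood test (adjusted p = 0.122). The exact permutation test over 70 relabellings gave a two-sided p of 0.0286, the smallest that 4 against 4 can give. *Emilin2* (ENSMUSG00000024053) lies on chromosome 17 of GRCm38, from 71252172 to 71311978.

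*Emilin1*, the sister gene, had groups that overlapped. Its level was between 303 and 381 CPM in control and between 282 and 377 CPM in mutant libraries, with a log2 fold change of -0.03 (SE 0.0986, 95% CI -0.25 to 0.18). The ratio of *Emilin2* to *Emilin1* CPM was 0.369 to 0.559 in control and 0.213 to 0.332 in mutant libraries, with no overlap.

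*Thbs4* encodes a thrombospondin of the pentameric class that is secreted into matrix of heart, tendon and vessel. In controls 1 to 4 the level of *Thbs4* was 69.5, 56.3, 58.8 and 38.4 CPM, and in mutants 1 to 4 it was 35.5, 25.8, 22.7 and 40.7 CPM. Control replicate 4 lay just below mutant replicate 4, so the groups overlapped by this 1 pair, while the other 3 control libraries were higher than every mutant library. The log2 fold change was -0.84 (SE 0.195, 95% CI -1.26 to -0.41), a fold of 0.56. It passed the likelihood ratio test (adjusted p = 0.0116), and its adjusted p was 0.0607 with DESeq2 and 0.214 with limma. The exact permutation p was 0.0571. *Thbs4* (ENSMUSG00000021702) is on chromosome 13, from 92751590 to 92794818.

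Lower levels of cardiomyocyte markers stood beside these values. Of 16 such markers, 16 had a log2 fold change below 0, with a median of -0.35. An unadjusted limma p under 0.05 was reached by 15 (all genes 6.62% lower), and 7 passed the likelihood ratio test (all genes 0.554% lower). Their summed level ran from 29487 to 34653 CPM in control and from 23438 to 27478 CPM in mutant libraries. As with *Thbs4* and *Emilin2*, control replicate 1 had the highest sum, control replicate 4 was the lowest control, and mutant replicates 2 and 3 were the lowest of all. Their part in the level of *Emilin2* and *Thbs4* was not tested, and in pooled tissue fewer cells of a type and less RNA per cell cannot be told apart.

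**Figure D3:**
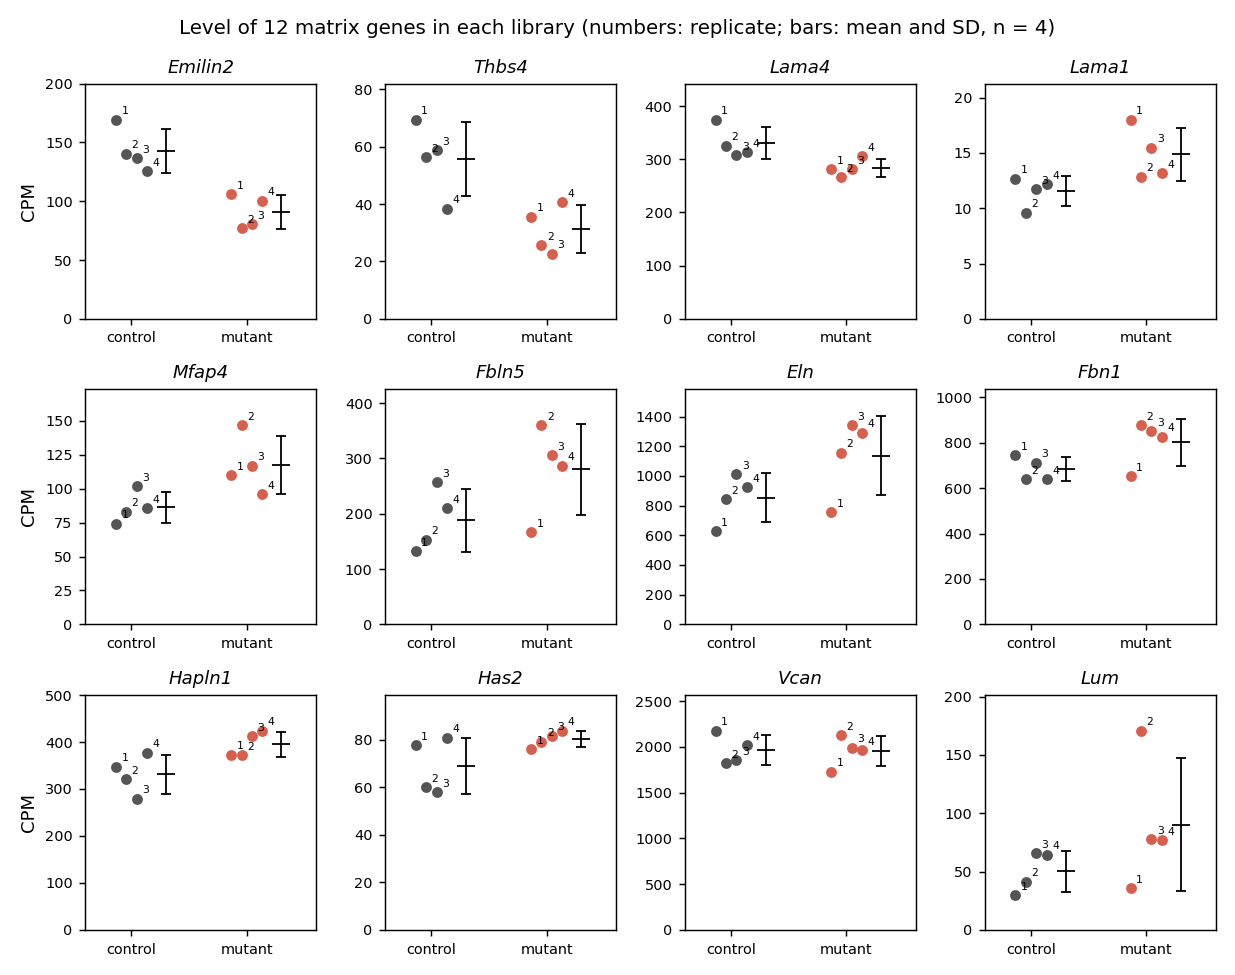
CPM of 12 matrix genes in each of the 4 control and 4 mutant libraries on linear axes from 0, with replicate numbers beside the points and bars for mean ± SD. *Emilin2* and *Lama4* lie lower and *Lama1* higher in all 4 mutant libraries, and for *Fbln5*, *Eln*, *Fbn1* and *Lum* mutant replicate 1 lies within the range of the controls.

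The windows upstream of *Emilin2*, *Thbs4* and *Fbln5* are shown because the first 2 genes carry the lower values and *Fbln5* has the largest positive difference among the elastic fibre genes, and since the mutated genes act in NOTCH signalling, whose DNA-binding factor is RBPJ, and as a GATA factor. Each is the 250 bases before a transcription start in RefSeq on GRCm38.p6, written 5′ to 3′ on the minus strand of the chromosome, which is the sense strand of these genes. Capitals mark the letters TGGGAA or their reverse complement TTCCCA, the core of an RBPJ site. For *Emilin2* and *Fbln5*, with 2 windows each, the window that holds these letters is the one shown.
Emilin2, chr17:71311012-71311261: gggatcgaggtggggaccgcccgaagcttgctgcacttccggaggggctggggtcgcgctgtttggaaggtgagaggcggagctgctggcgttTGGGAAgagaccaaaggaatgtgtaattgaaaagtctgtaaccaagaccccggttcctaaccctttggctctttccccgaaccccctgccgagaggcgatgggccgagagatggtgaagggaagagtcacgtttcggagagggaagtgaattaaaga
Thbs4, chr13:92794819-92795068: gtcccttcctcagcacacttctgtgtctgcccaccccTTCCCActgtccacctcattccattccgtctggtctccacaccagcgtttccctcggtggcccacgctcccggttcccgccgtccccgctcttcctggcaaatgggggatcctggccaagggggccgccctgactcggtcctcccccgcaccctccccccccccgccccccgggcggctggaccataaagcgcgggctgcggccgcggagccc
Fbln5, chr12:101819120-101819369: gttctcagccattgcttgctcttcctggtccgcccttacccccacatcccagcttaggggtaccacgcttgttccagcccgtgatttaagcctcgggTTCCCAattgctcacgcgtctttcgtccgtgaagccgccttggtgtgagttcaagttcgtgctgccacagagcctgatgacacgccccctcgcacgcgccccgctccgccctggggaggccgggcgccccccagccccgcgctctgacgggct
The letters start at position -157 in the *Emilin2* window, -213 in that of *Thbs4* and -153 in that of *Fbln5*, counted from the transcription start. The *Emilin2* window belongs to the inner of 2 RefSeq starts and lies within the gene, with 0 bases of exon, and the window of the outer start, like the inner window of *Fbln5*, holds neither motif. RefSeq windows were found for 30 of the 46 genes, 40 windows in all. TGGGAA or TTCCCA occurred in 16 of the 40 windows, in 14 genes, and in 21.6% of all 32851 windows. The GATA letters GATAA or TTATC occurred in 5 of the 40 windows, and in 22.6% of all windows. These matches describe letters and not bound sites, and the genes' direction was not read from them.

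Among the genes of the hyaluronan and versican matrix, the link protein gene *Hapln1* had the largest difference and *Vcan* the smallest. *Hapln1* measured 347, 321, 279 and 377 CPM in control replicates 1 to 4 and 373, 372, 412 and 424 CPM in mutant replicates 1 to 4. Control replicate 4 overlapped the mutant libraries and the other 3 controls lay below them. This gave a log2 fold change of 0.26 (SE 0.0915, 95% CI 0.06 to 0.46), with an adjusted limma p of 0.331. With a GC correction it was 0.13, and *Hapln1* was no longer among the genes at an unadjusted p under 0.05, nor was it without control replicate 3. *Has2* encodes the hyaluronan synthase of the cushions. In controls 1 to 4 the level of *Has2* was 77.6, 60.1, 58.0 and 80.9 CPM, and in mutants 1 to 4 it was 76.0, 79.2, 81.7 and 83.9 CPM. The controls spread over a wide range and the mutant libraries sat close together near its top, with a log2 fold change of 0.23 (SE 0.105, 95% CI -0.0019 to 0.46, limma adjusted p = 0.417). It was 0.11 with the GC correction and 0.15 without control replicate 3.

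*Vcan* was the most abundant gene of this group. Levels of *Vcan* were 2179, 1820.4, 1856 and 2018 CPM in controls 1 to 4 and 1729, 2125, 1993 and 1964 CPM in mutants 1 to 4. Its log2 fold change was -0.01 (SE 0.0903, 95% CI -0.21 to 0.18), with groups that overlapped over most of their range. *Hapln1* and *Vcan* are neighbours on chromosome 13, from 89539796 to 89611652 and from 89655312 to 89742509. The ratio of *Hapln1* to *Vcan* CPM was 0.150 to 0.187 in control and 0.175 to 0.216 in mutant libraries, which overlap. *Cd44*, the surface receptor for hyaluronan, had 84.2, 66.5, 68.1 and 88.5 CPM in control and 76.4, 91.4, 77.6 and 88.0 CPM in mutant libraries. The groups overlapped and the log2 fold change was 0.12 (SE 0.103, 95% CI -0.10 to 0.35). It moved to 0.06 with the GC correction, and to between 0.06 (without control replicate 2) and 0.20 (without control replicate 4) when 1 library was left out, with 0.07 without control replicate 3 and 0.08 without mutant replicate 2.

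Other genes of hyaluronan and glycosaminoglycan synthesis and turnover were followed as a list. Of 47 listed, 44 were in the table. At an unadjusted limma p under 0.05, 2 were higher and 2 lower (all genes 5.45% higher and 6.62% lower), and 0 passed the likelihood ratio test. Their median log2 fold change was -0.01. The 3 with the smallest p were *Ugdh*, which makes the UDP-glucuronic acid that hyaluronan is built from, with a log2 fold change of 0.24 (limma adjusted p = 0.274), *Sulf1*, a sulfatase that trims heparan sulfate, with 0.45 (limma adjusted p = 0.292), and *Stab1*, a scavenger receptor of endothelium and macrophages, with -0.30 (limma adjusted p = 0.308). *Ugdh* measured 105, 98.6, 98.9 and 118 CPM in control and 115, 129.95, 128 and 125 CPM in mutant libraries, with the highest control above the lowest mutant library.

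In the group of fibronectin, microfibrils and elastic fibres, 5 of 14 genes were higher and 1 lower at an unadjusted limma p under 0.05 (all genes 5.45% higher and 6.62% lower), and the median log2 fold change was 0.12. Of these 5, *Mfap4* alone was at that level without mutant replicate 2, and *Mfap4* and *Mfap5* alone without mutant replicate 3, mutant replicate 4 or control replicate 2. The 5 higher genes build or dress the elastic fibre: *Eln*, the fibre's core, *Fbln5*, which brings elastin to microfibrils, *Fbn1* (fibrillin), the backbone of microfibrils, and *Mfap4* and *Mfap5*, glycoproteins bound to them. The scaffold protein *Fn1*, the highest of the group per length, stood at 3181, 2929, 2817 and 2728 CPM in control and 2843, 2615, 2975 and 3119.9 CPM in mutant libraries. The groups spanned much the same range. Its log2 fold change was -0.01 (SE 0.0882, 95% CI -0.21 to 0.18).

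*Mfap4* had the smallest p of the 5. In controls 1 to 4 the level of *Mfap4* was 74.2, 83.1, 102 and 85.7 CPM, and in mutants 1 to 4 it was 110.0, 147, 117 and 96.1 CPM. Mutant replicate 2 was the highest library, and mutant replicate 4 lay below control replicate 3. The log2 fold change was 0.44 (SE 0.124, 95% CI 0.17 to 0.71), with an adjusted p of 0.258 in limma, 0.0689 in the likelihood ratio test and 0.0434 in DESeq2. *Mfap5* was lowly expressed. Levels of *Mfap5* were 3.46, 3.319, 4.48 and 4.59 CPM in controls 1 to 4 and 4.20, 7.28, 5.46 and 5.98 CPM in mutants 1 to 4. Its log2 fold change was 0.47 (SE 0.172, 95% CI 0.10 to 0.85, limma adjusted p = 0.342).

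*Fbln5*, *Eln* and *Fbn1* had in common that mutant replicate 1 fell within the range of the controls and mutant replicates 2, 3 and 4 above it. *Fbln5* measured 132, 153, 257 and 210.4 CPM in control replicates 1 to 4 and 166, 360.4, 306 and 287 CPM in mutant replicates 1 to 4. Its log2 fold change was 0.57 (SE 0.235, 95% CI 0.05 to 1.08, limma adjusted p = 0.39). *Eln* measured 629, 844, 1013 and 924 CPM in control replicates 1 to 4 and 757, 1155, 1343 and 1289.9 CPM in mutant replicates 1 to 4. The log2 fold change of *Eln* was 0.40 (SE 0.180, 95% CI 0.01 to 0.79, limma adjusted p = 0.407), and 0.26 without control replicate 1. The ratio of *Fbln5* to *Eln* CPM overlapped between groups, 0.181 to 0.254 in control and 0.220 to 0.312 in mutant libraries.

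*Fbn1* was steadier. Levels of *Fbn1* were 744, 639.8, 712 and 640.2 CPM in controls 1 to 4 and 652, 878, 851 and 826 CPM in mutants 1 to 4. On the log2 scale, mutant over control came to 0.22 (SE 0.0981, 95% CI 0.01 to 0.44, limma adjusted p = 0.402). The other fibrillin, *Fbn2*, had a log2 fold change of 0.12, with 702 to 812 CPM in control and 757 to 891 CPM in mutant libraries. The remaining genes of this group, *Mfap2*, *Fbln1*, *Fbln2*, *Efemp1* and *Efemp2*, had log2 fold changes from -0.11 to 0.18. *Fbln2* stood apart in 1 library: mutant replicate 1 had 547 CPM, whereas the other mutant libraries had 774 to 799 CPM and the controls 558 to 763 CPM.

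The enzymes and adaptors that assemble and crosslink elastic fibres were all in the table (10 of 10). At an unadjusted limma p under 0.05, 1 was higher and 1 lower (all genes 5.45% higher and 6.62% lower), and 0 passed the likelihood ratio test. *Lox*, the lysyl oxidase that crosslinks elastin and collagen, measured 50.1, 60.5, 76.7 and 81.9 CPM in control and 54.5, 155, 99.3 and 109 CPM in mutant libraries, with a log2 fold change of 0.56 (limma adjusted p = 0.409). As for *Fbln5*, mutant replicate 2 was highest and mutant replicate 1 lay among the controls. *Tgm2*, a transglutaminase, had a log2 fold change of -0.25 (limma adjusted p = 0.405), and *Adamts17*, a protease of microfibril assembly, 0.20 (limma adjusted p = 0.524).

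Among the 11 matricellular and adaptor proteins, 2 were higher and 1, *Thbs4*, was lower at an unadjusted p under 0.05. Of all genes 5.45% were higher and 6.62% lower at that level. The median log2 fold change of the 11 was 0.14. *Cthrc1*, a secreted collagen triple helix protein, was the steadier of the higher genes. *Cthrc1* measured 61.7, 79.8, 74.1 and 82.9 CPM in control replicates 1 to 4 and 77.6, 119.9, 95.3 and 93.8 CPM in mutant replicates 1 to 4. Mutant replicate 1 lay among the controls and the other mutant libraries above them. It had a log2 fold change of 0.36 (SE 0.125, 95% CI 0.09 to 0.63, limma adjusted p = 0.322). *Thbs2*, a thrombospondin of the trimeric class, was scarce. In controls 1 to 4 the level of *Thbs2* was 9.33, 10.5, 13.4 and 11.9 CPM, and in mutants 1 to 4 it was 9.71, 24.0, 16.6 and 15.8 CPM. The log2 fold change of 0.47 (SE 0.213, 95% CI 0.01 to 0.94, limma adjusted p = 0.409) leaned on mutant replicate 2, and was 0.28 without that library.

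The thrombospondins thus gave values in both directions. *Thbs1*, with 497 to 596 CPM in control and 442 to 906 CPM in mutant libraries, had a log2 fold change of 0.21, and *Thbs3*, with 45.2 to 51.7 and 51.4 to 54.5 CPM, had 0.13 (limma adjusted p = 0.442). For *Thbs3* the groups overlapped by a narrow margin. The ratio of *Thbs4* to *Thbs3* CPM was 0.743 to 1.54 in control and 0.417 to 0.765 in mutant libraries.

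For *Sparc*, the leading matrix gene per length, the groups overlapped. Levels of *Sparc* were 1199, 1333, 1304 and 1351 CPM in controls 1 to 4 and 1249, 1204, 1342 and 1345 CPM in mutants 1 to 4. Its log2 fold change was -0.01 (SE 0.0735, 95% CI -0.17 to 0.15). *Postn* (periostin), a product of cushion mesenchyme and of its fibroblast descendants, had 594 to 691 CPM in control libraries and 515, 1172, 747 and 681 CPM in mutant replicates 1 to 4, with a log2 fold change of 0.21 (limma adjusted p = 0.639). The lowest and the highest library were both mutant. *Tnc*, *Sparcl1*, *Tgfbi* and *Matn2* had log2 fold changes from 0.00 to 0.15.

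None of the 5 small leucine-rich proteoglycans, which coat collagen fibrils, reached an unadjusted limma p under 0.05 (all genes 12.1%). Their median log2 fold change was 0.24, from -0.06 for *Dcn* (decorin) to 0.70 for *Lum* (lumican). *Lum* measured 29.8, 41.2, 65.7 and 64.3 CPM in control replicates 1 to 4 and 35.5, 171, 77.6 and 76.8 CPM in mutant replicates 1 to 4. The value of mutant replicate 2 was far above the rest, mutant replicate 1 was lower than every control library but 1, and the log2 fold change was 0.70 (SE 0.381, 95% CI -0.13 to 1.52, limma adjusted p = 0.471). Without mutant replicate 2 it was 0.32, and without mutant replicate 1 it was 1.07.

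*Bgn* had the highest level per length of these genes. Levels of *Bgn* were 192, 207, 234 and 224 CPM in controls 1 to 4 and 174, 195, 245 and 252 CPM in mutants 1 to 4. The mutant libraries reached both below and above the controls, and the log2 fold change was -0.00062 (SE 0.114, 95% CI -0.25 to 0.25). *Lum* and *Dcn* are neighbours on chromosome 10, from 97565128 to 97572703 and from 97479609 to 97518143. Their CPM ratio was 0.696 to 1.42 in control and 1.07 to 2.79 in mutant libraries, which overlap. *Fmod* and *Ogn* both had a log2 fold change of 0.24, and *Ogn* ran from 1.26 CPM in mutant replicate 1 to 6.81 CPM in mutant replicate 2.

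The basement membrane genes had a median log2 fold change of -0.09. Of the 12, 8 were below 0 and 4 above (all genes 50.4% above 0). At an unadjusted p under 0.05, 1 was higher and 1 lower (all genes 5.45% higher and 6.62% lower), and both encode laminin alpha chains. *Lama4*, the alpha chain of laminins around vessels and in mesenchyme, was lower. *Lama4* measured 375, 325, 308 and 313 CPM in control replicates 1 to 4 and 281, 266, 281 and 305 CPM in mutant replicates 1 to 4. Every mutant library lay below every control library, by a narrow margin. On the log2 scale, mutant over control came to -0.22 (SE 0.0758, 95% CI -0.38 to -0.05, limma adjusted p = 0.331), with an exact permutation p of 0.0286.

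*Lama1*, the alpha chain of the earliest embryonic laminin, was higher. In controls 1 to 4 the level of *Lama1* was 12.7, 9.58, 11.7 and 12.2 CPM, and in mutants 1 to 4 it was 18.0, 12.8, 15.5 and 13.2 CPM. Every mutant library lay above every control library, with mutant replicate 2 only just above control replicate 1. On the log2 scale it differed by 0.35 (SE 0.128, 95% CI 0.07 to 0.63, limma adjusted p = 0.346), again with an exact permutation p of 0.0286. *Lama1* was not at an unadjusted p under 0.05 without control replicate 2 or without mutant replicate 1. The ratio of *Lama4* to *Lama1* CPM was 25.7 to 34.0 in control and 15.6 to 23.2 in mutant libraries. Per length, *Lama4* stood at 27.4 and 23.5 CPM per kb and *Lama1* at 1.19 and 1.54 CPM per kb in control and mutant libraries, so *Lama1* was the minor chain in both.

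*Lamc1*, the gamma chain shared by most laminins, had 625 to 751 CPM in control and 575 to 623 CPM in mutant libraries, with no overlap and a log2 fold change of -0.15 (SE 0.0729, 95% CI -0.31 to 0.01, limma adjusted p = 0.439). *Hspg2* (perlecan), the large heparan sulfate proteoglycan of basement membranes, had a log2 fold change of -0.19 (SE 0.0949, 95% CI -0.39 to 0.02, limma adjusted p = 0.444). *Nid2*, which ties laminin to collagen IV, was the highest of the group per length. Levels of *Nid2* were 608, 647, 596 and 572 CPM in controls 1 to 4 and 485, 613, 585 and 537 CPM in mutants 1 to 4. The groups overlapped, with a log2 fold change of -0.13 (SE 0.0810, 95% CI -0.31 to 0.05). It was -0.07 both without mutant replicate 1 and with the GC correction. The other laminin chains *Lama2*, *Lama5*, *Lamb1* and *Lamb2*, with *Nid1*, *Agrn* and *Npnt*, had log2 fold changes from -0.11 to 0.10.

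Of 73 other matrix glycoproteins and proteoglycans, listed for comparison, 57 were in the table. At an unadjusted p under 0.05, 3 were higher and 4 lower (all genes 5.45% higher and 6.62% lower), and 0 passed the likelihood ratio test. Their median log2 fold change was 0.10, equal at this precision to that of the 46 genes. The 3 with the smallest p were all lower: the glypicans *Gpc4*, with -0.25 (limma adjusted p = 0.281), and *Gpc1*, with -0.25 (limma adjusted p = 0.347), which carry heparan sulfate on the cell surface, and *Mmrn2*, an EMILIN-family protein of endothelium, with -0.31 (limma adjusted p = 0.392). *Gpc4* measured 56.4 to 58.3 CPM in control and 42.3 to 53.7 CPM in mutant libraries, which did not overlap.

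How far libraries of one group differed was then described, without a test. The median within-group SD was 0.177 on the log2 scale for the 46 genes and 0.149 for all genes, and 28 of the 46 were above the latter. *Lum* was the most variable, with an SD of 0.755 at percentile 99.2 of all genes, followed by *Ogn* (0.658), *Fbln5* (0.460), *Thbs2* (0.396), *Thbs4* (0.372), *Postn* (0.355) and *Eln* (0.341), and *Agrn* was the least variable (0.0586).

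Among the mutant libraries, replicate 1 was the lowest for 27 of the 46 genes, where it was the lowest for 24.2% of all genes. Replicate 2 was the highest for 20 of 46, where it was the highest for 36.9% of all genes. It was also the lowest for 15 of 46 (all genes 35.6%), and the lowest of all 8 libraries for 9 of 46 (all genes 26.2%). Over 8 libraries, 16 of the 46 genes had their highest value in mutant replicate 2 (all genes 27.3%), 12 their lowest in control replicate 1 (all genes 10.2%) and 11 their lowest in mutant replicate 1 (all genes 10.1%). The 46 genes together made up 1.83% to 1.84% of each control library. In mutant replicates 1 to 4 they made up 1.71%, 1.96%, 2.04% and 2.0%, so that 1 mutant library lay below the controls and 3 above.

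**Figure D4:**
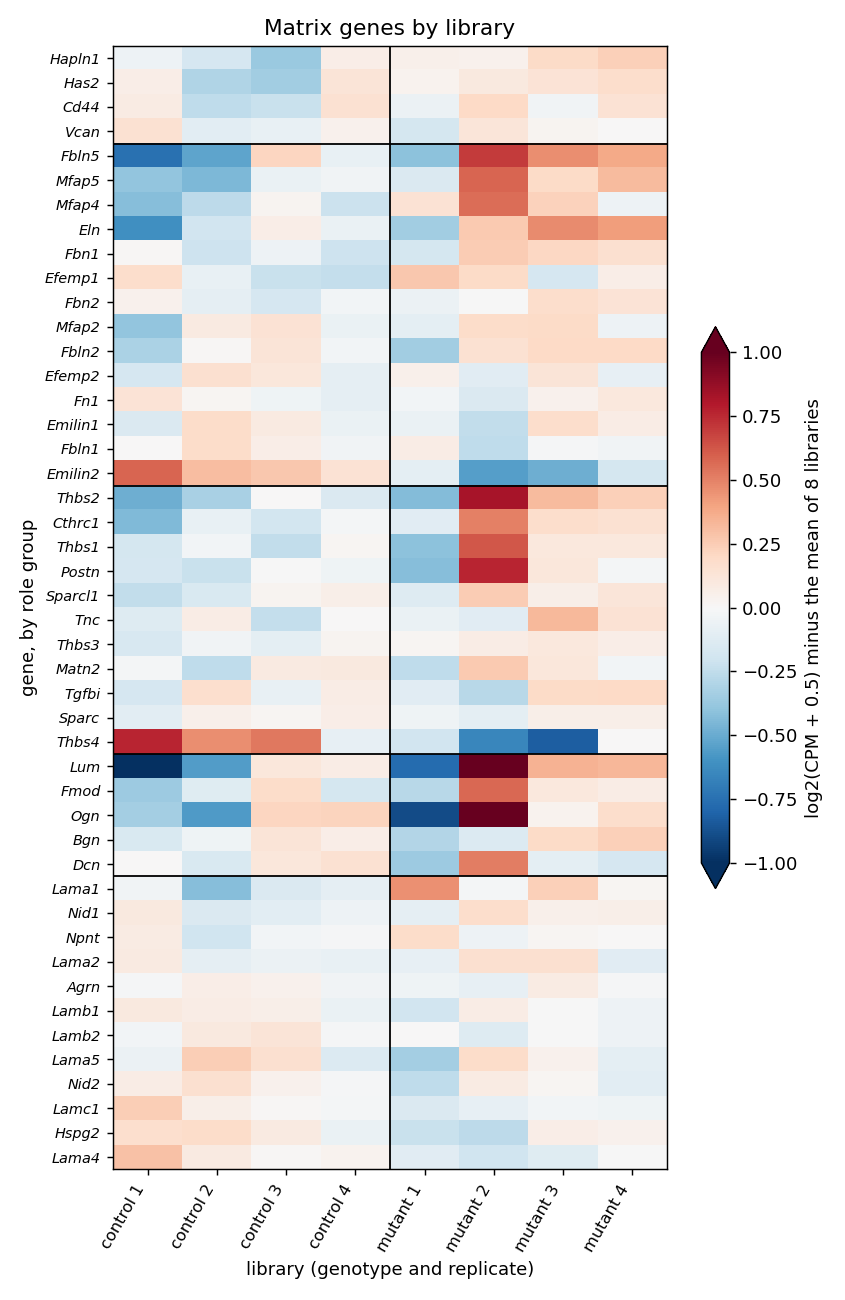
Level of each of the 46 matrix genes in each library, as log2(CPM + 0.5) minus the gene's mean over 8 libraries, with genes in rows by role group and libraries in columns. The colour scale ends at -1 and 1, and values beyond take the end colour. Red marks higher and blue lower values: control replicate 1 and mutant replicate 1 share low values for *Fbln5*, *Eln*, *Thbs2* and *Lum*, and mutant replicate 2 has the highest value for *Fbln5*, *Thbs2*, *Lum* and *Postn*.

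Markers of other cells of the OFT were set beside this spread. The summed level of 9 epicardial markers was 401 to 532 CPM in control libraries, and 388, 660, 463 and 461 CPM in mutant replicates 1 to 4, so that it was lowest in mutant replicate 1 and highest in mutant replicate 2, where *Lum*, *Postn* and *Ogn* were highest too. Of the 9, 1 was lower at an unadjusted limma p under 0.05 (all genes 6.62% lower and 5.45% higher). The sum of 10 macrophage markers was also lowest in mutant replicate 1 (58.6 CPM) and highest in mutant replicate 2 (90.4 CPM). That of 9 erythroid markers was highest in mutant replicate 2 too (5479 CPM). For 10 cushion mesenchyme markers the sum was 1140 to 1416 CPM in control and 1266 to 1398 CPM in mutant libraries, and 0 of them reached an unadjusted limma p under 0.05. For 8 smooth muscle markers it was 2693 to 3167 and 2608 to 3159 CPM, with 1 higher and 1 lower. For 12 markers of endocardium and endothelium it was 1103 to 1345 and 1122 to 1233 CPM, with 3 lower. Of these 12, 5 had a log2 fold change above 0 and 7 below, with a median of -0.06. Of 7 markers of second heart field and pharyngeal mesoderm in the table, 4 were higher, with sums of 139 to 168 and 163 to 193 CPM. Of 7 markers of neural crest, glia and neurons 1 was higher, of 10 macrophage markers 1 was lower, and of 9 erythroid and 3 epithelial markers 0 reached that level. The part of these cell types in the levels of the matrix genes was not tested.

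**Figure D5:**
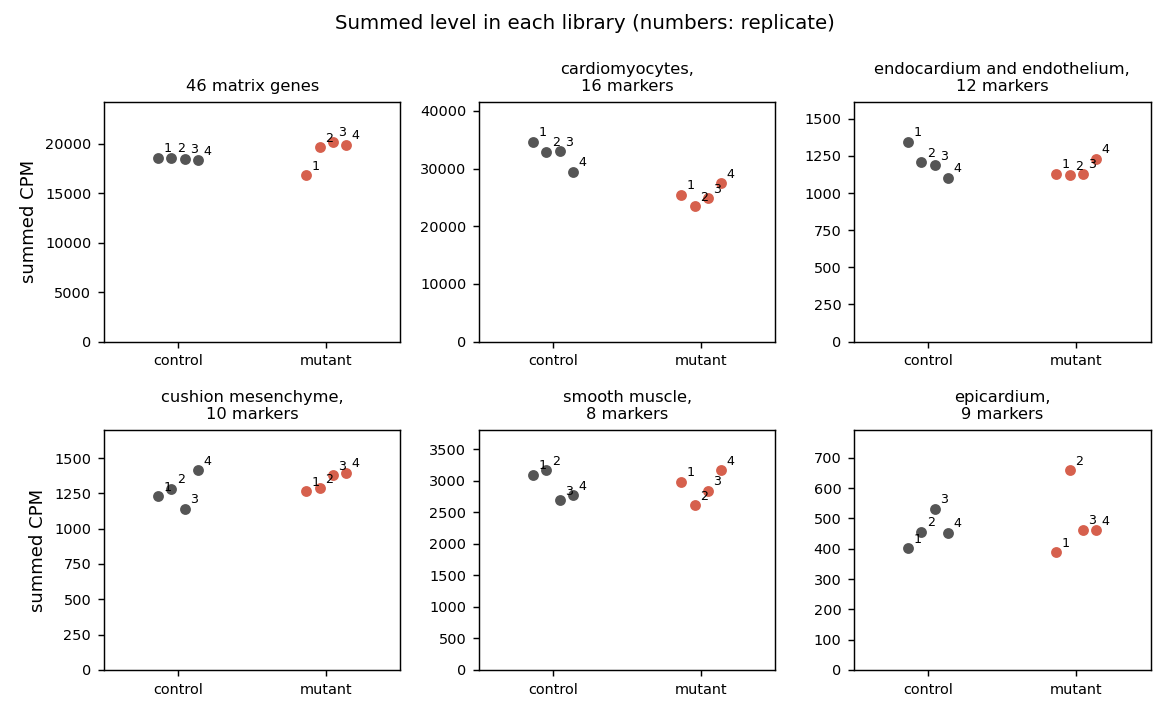
Summed CPM per library of the 46 matrix genes and of 5 lists of cell type markers, on linear axes from 0, with replicate numbers beside the points. The cardiomyocyte sum is lower in all 4 mutant libraries (23438 to 27478 CPM) than in any control (29487 to 34653 CPM), the epicardial sum is highest in mutant replicate 2 (660 CPM), and the matrix sum is tight in controls (18346 to 18587 CPM) and spread in mutant libraries (16840 to 20187 CPM).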

How the data were processed

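RNA-seq of OFT from 4 control and 4 mutant libraries was analysed. Per the methods and the submitters' processing notes, 60 bp reads were trimmed with cutadapt 1.18 and quantified by RSEM 1.2.3 on GRCm38 with the Ensembl genebuild, genes with 1 CPM in at least 3 samples were kept, and counts were normalized by TMM in edgeR 3.32.1 (R 4.0.3). As deposited, the table by the authors gives CPM for 14608 genes in 1 column per library (0 columns were left out). In every column the values are multiples of what 1 read is worth, so reads were recovered: 100.0% of the values came out whole within 0.001. The adjustment by TMM assumes that most genes do not change, and pooled tissue makes each level a mean over cell types. No batch is given in the labels.

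log2(CPM + 0.5) was fitted over all genes in limma 3.58.1 under R 4.3.3 (lmFit, then eBayes with trend), two-sided. P-values were adjusted by Benjamini-Hochberg, and the threshold was 0.05. Fold changes are on this scale and understate those of low genes. The likelihood ratio and quasi-likelihood tests of edgeR 4.0.16 and DESeq2 1.42.0 were run on whole reads. Single genes also had exact permutation tests over 70 relabellings, whose p-values are unadjusted. Other alternatives were pseudocounts of 0.1 and 1, a filter at a mean of 5 CPM, median-of-ratios scaling, no TMM, a GC correction, a replicate block and leaving out each library. The script was tested on simulated data. P-values measure the spread between these libraries, which were treated as separate pools although the methods name fewer pools than libraries.

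The 46 genes and all gene lists were chosen with earlier results of these data known. Library values are given for genes with an unadjusted limma p under 0.05 or past the likelihood ratio test, for the 4 hyaluronan and versican genes, and in each role group for the gene with the highest level per length and the one with the largest fold change. In the comparison lists, the 3 genes with the smallest p are named. Genes named with ranges, ratios or single libraries besides these were picked after their values were seen. Lengths are exon lengths from the GRCm38 annotation, and promoters are from RefSeq.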

Additional observations from a re-analysis of the deposited data

Results flagged for a closer look

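Each of the 46 genes was examined in each group for a library far from the other 3, by Dixon's ratio of the gap to the range and its 95% critical value for 4 samples. Of 92 such groups, 1 exceeded it: *Fbln2* in mutant replicate 1, with 547 CPM where the other mutant libraries had 774 to 799 CPM (ratio 0.902). Chance flags about 1 in 20 groups. Mutant replicate 1 was also the lowest mutant library for 27 of the 46 genes.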

How the results depend on the processing

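The alternatives were run for the 20 genes given library by library. Of these, 16 kept their direction in each alternative that gave a value, and 4, whose log2 fold change was within 0.02 of 0, did not. Scaled to library totals without TMM, *Vcan* was at 0.010, *Fn1* at 0.0086, *Sparc* at 0.0086 and *Bgn* at 0.021. With a GC correction, alone or with the replicate block, *Fn1* was at 0.036, *Sparc* at 0.023 and *Bgn* at 0.022, and *Bgn* was at 0.012 in both edgeR tests and 0.010 in DESeq2. Leaving out 1 library gave -0.0537 to 0.0454 for *Vcan*, -0.0514 to 0.0334 for *Fn1*, -0.0503 to 0.0175 for *Sparc* and -0.0792 to 0.0974 for *Bgn*. *Emilin2* ran from -0.73 to -0.57 (adjusted p 0.000139 to 0.483), *Thbs4* from -1.002 to -0.70 (adjusted p 0.0116 to 0.526), *Hapln1* from 0.13 with the GC correction to 0.33, *Has2* from 0.11 with the GC correction to 0.31, and *Lum* from 0.32 without mutant replicate 2 to 1.07 without mutant replicate 1. Genes past the threshold over the whole table numbered 0 in limma, 107 in the likelihood ratio test and 192 in DESeq2, and matrix genes 0, 2 and 2. Matrix genes at an unadjusted limma p under 0.05 numbered 7 (without control replicate 2, where 7.67% of all genes were at that level) to 17 (without mutant replicate 1, 12.3% of all genes) when 1 library was left out, and their median log2 fold change ran from 0.05 without mutant replicate 2 to 0.14 without mutant replicate 1. The cause of these shifts was not tested. No pairing by replicate number was seen: the deviations of same-numbered libraries correlated at 0.035, -0.185, 0.027 and -0.045 across genes, and no library correlated best with its own number. These correlations cannot exclude a pairing with a weak effect. With the replicate block, 0 genes passed the threshold and 12 matrix genes were at an unadjusted p under 0.05 (8.93% of all genes), and with the GC correction too 15 were (10.2% of all genes). *Mfap5*, under 5 CPM on average, has no value under that filter. The lowest read counts were 18 for *Ogn* and 35 for *Mfap5*, and what differences that depth could show was not tested.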
